A study of Mus musculus with 6 samples.

Results

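Reg lectins and other secreted or shed defence proteins of the gut epithelium were followed in crypt cells of the mouse small intestine. The group holds 9 genes, Reg1, Reg3a, Reg3b, Reg3g, Reg4, Lypd8, Dmbt1, Pigr and Retnlb, taken by gene symbol from the 28564 genes of the deposited count table. All 9 were in the table and passed the filter on low counts. The samples were 3 Apln-/- and 3 wild-type (C57Bl/6) samples, all from male mice of 13 weeks. Apln encodes apelin, a secreted peptide. The labels describe the same protocol for both groups. Liberase TL was used to dissociate the small intestine. Live single cells with EpCAM and CD44 but without CD31 or CD45 were sorted for RNA sequencing. The knockout allele, its genetic background, the segment of small intestine taken and any pooling of animals are not stated in the labels. The titles call the replicates biological, and since they do not tie each to an animal, p-values measure only the spread between these samples.

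The intestinal epithelium keeps bacteria at a distance with proteins that it releases into the mucus. Reg3 lectins are small C-type lectins, of which Reg3g and Reg3b bind bacterial surfaces. They are induced in enterocytes and Paneth cells by contact with microbes and by the cytokine IL-22, which signals through the transcription factor Stat3. Other proteins of the group trap bacteria, hinder their swimming or carry antibodies into the lumen.

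4 of the 9 genes lie in the Reg cluster on chromosome 6 (mm10): Reg3b at 78370657 to 78373466 and Reg3a at 78380709 to 78383827 on the plus strand, Reg1 at 78422711 to 78428667 on the plus strand and Reg3g at 78466269 to 78468872 on the minus strand. The others lie apart, Reg4 on chromosome 3 (98222156 to 98236748), Lypd8 on chromosome 11 (58379043 to 58390728), Dmbt1 on chromosome 7 (131032053 to 131121630), Pigr on chromosome 1 (130826684 to 130852249) and Retnlb on chromosome 16 (48816856 to 48818892), all on the plus strand. RefSeq promoter windows of build GRCm38.p6, from 250 bases before to 50 bases after the annotated start, were matched for 7 of the 9 genes. The windows of Reg3b, Reg3g and Reg3a are shown because Reg3b and Reg3g had nearly the same profile over the libraries, whereas Reg3a, their neighbour, did not. They lie at chr6:78370635-78370934 (plus strand), chr6:78468825-78469124 (minus strand) and chr6:78380459-78380758 (plus strand). Capitals mark runs of at least 10 identical bases, between Reg3b and Reg3g in their windows and between Reg3a and Reg3g in the window of Reg3a.
Reg3b: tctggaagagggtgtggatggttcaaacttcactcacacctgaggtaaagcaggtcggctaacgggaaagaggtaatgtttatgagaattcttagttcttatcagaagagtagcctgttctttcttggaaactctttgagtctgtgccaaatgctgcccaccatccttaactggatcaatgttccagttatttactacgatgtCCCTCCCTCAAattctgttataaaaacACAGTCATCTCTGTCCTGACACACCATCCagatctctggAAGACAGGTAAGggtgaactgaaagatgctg
Reg3g: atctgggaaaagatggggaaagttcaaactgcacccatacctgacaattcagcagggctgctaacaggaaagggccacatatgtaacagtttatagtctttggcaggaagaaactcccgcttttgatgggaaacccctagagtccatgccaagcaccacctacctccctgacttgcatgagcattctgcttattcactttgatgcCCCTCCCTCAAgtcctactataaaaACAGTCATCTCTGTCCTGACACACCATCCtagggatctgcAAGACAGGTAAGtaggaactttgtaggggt
Reg3a: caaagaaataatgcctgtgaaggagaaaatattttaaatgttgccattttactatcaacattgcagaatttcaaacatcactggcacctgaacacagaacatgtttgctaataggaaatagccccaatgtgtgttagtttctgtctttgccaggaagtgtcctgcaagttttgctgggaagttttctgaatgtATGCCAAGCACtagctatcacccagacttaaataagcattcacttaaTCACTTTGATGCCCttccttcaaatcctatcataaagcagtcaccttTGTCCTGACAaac

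The Reg3b and Reg3g windows were 69.0% identical in a global alignment, with a longest shared run of 29 bases just after the TATA box. Reg3a was 61.3% identical to Reg3g, with a longest shared run of 14 bases, and 56.0% identical to Reg3b. A TATA box (TATAAAA, searched on both strands) began 29 bases before the RefSeq start of Reg3b, 27 before that of Reg3g and 30 before that of Reg1. The RefSeq starts of Reg3b and Reg1 lie inside the gene spans given above, which come from GENCODE. Of the 32544 distinct promoter windows of the same length 5.44% held this motif. The palindrome bound by STAT factors (TTCNNNGAA, the same on both strands) was found as TTCTTGGAA in the Reg3b window, 129 bases before the start, and as TTCCTGGAA in the Pigr window. It was in 8.33% of all windows. The other windows of the group held no match to its letters. A match is a description of letters and not a site shown to be used.

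Total counts were 23046880 to 25402259 in the Apln-/- libraries and 24365754 to 26513481 in the wild-type libraries. Outside the 5 most abundant entries, which are led by mitochondrial ribosomal RNA, 5144725 to 5623112 counts were left per Apln-/- library and 6037237 to 7616648 per wild-type library. Levels are given in CPM, counts scaled by the size of the library after TMM normalization. The 9 genes together took 0.946%, 2.62% and 1.60% of these remaining counts in Apln-/- replicates 1, 2 and 3, against 1.86%, 2.06% and 1.75% in wild-type replicates 1, 2 and 3. The Apln-/- libraries therefore lay both below and above all wild-type libraries. Apln itself had 0 counts in each Apln-/- library, against 29, 7 and 5 in wild type. Of 15122 genes tested between the groups, 0.172% passed edgeR's quasi-likelihood test (threshold 0.05 after Benjamini-Hochberg adjustment, as for every adjusted p given here), 15.2% had an unadjusted p under 0.05 and 20.9% had groups that did not overlap.

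None of the 9 genes passed the test between the groups, and Reg3b, Reg3g, Dmbt1 and Lypd8 ranged more widely among the Apln-/- libraries than among the wild-type libraries. In the edgeR test 0 of 9 passed, 0 of 9 had an unadjusted p under 0.05, and in 0 of 9 were the groups apart, against the shares of all genes given above. The DESeq2 Wald test gave an adjusted p for 7 of the 9, not for Reg3a and Retnlb, and 0 of the 7 passed, against 5.73% of all genes with an adjusted p. In that test 1 of 9 (Reg3a) had an unadjusted p under 0.05, against 15.3% of all genes. With no filter on low counts the edgeR test called 2 of 9, Dmbt1 and Retnlb, against 2.20% of all genes. Yet that fit gave the log2 fold changes of Reg3b, Reg3g, Lypd8, Dmbt1 and Pigr SEs of 0.1725 to 0.174. In the main fit their SEs ran between 0.158 and 0.578. The adjusted p-values with no filter, here and below, therefore hardly reflect how far each of these genes spread between libraries. The log2 fold change of Apln-/- over wild type was positive for 4 genes and negative for 5, with a median of -0.11, against -0.01 over all genes tested. The lowest adjusted p in the edgeR test with Benjamini-Hochberg adjustment was 0.333, for Reg3a. Because RNA came from many cells at once, fewer cells of a type and less RNA per cell cannot be told apart in any of these values.

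**Figure D1:**
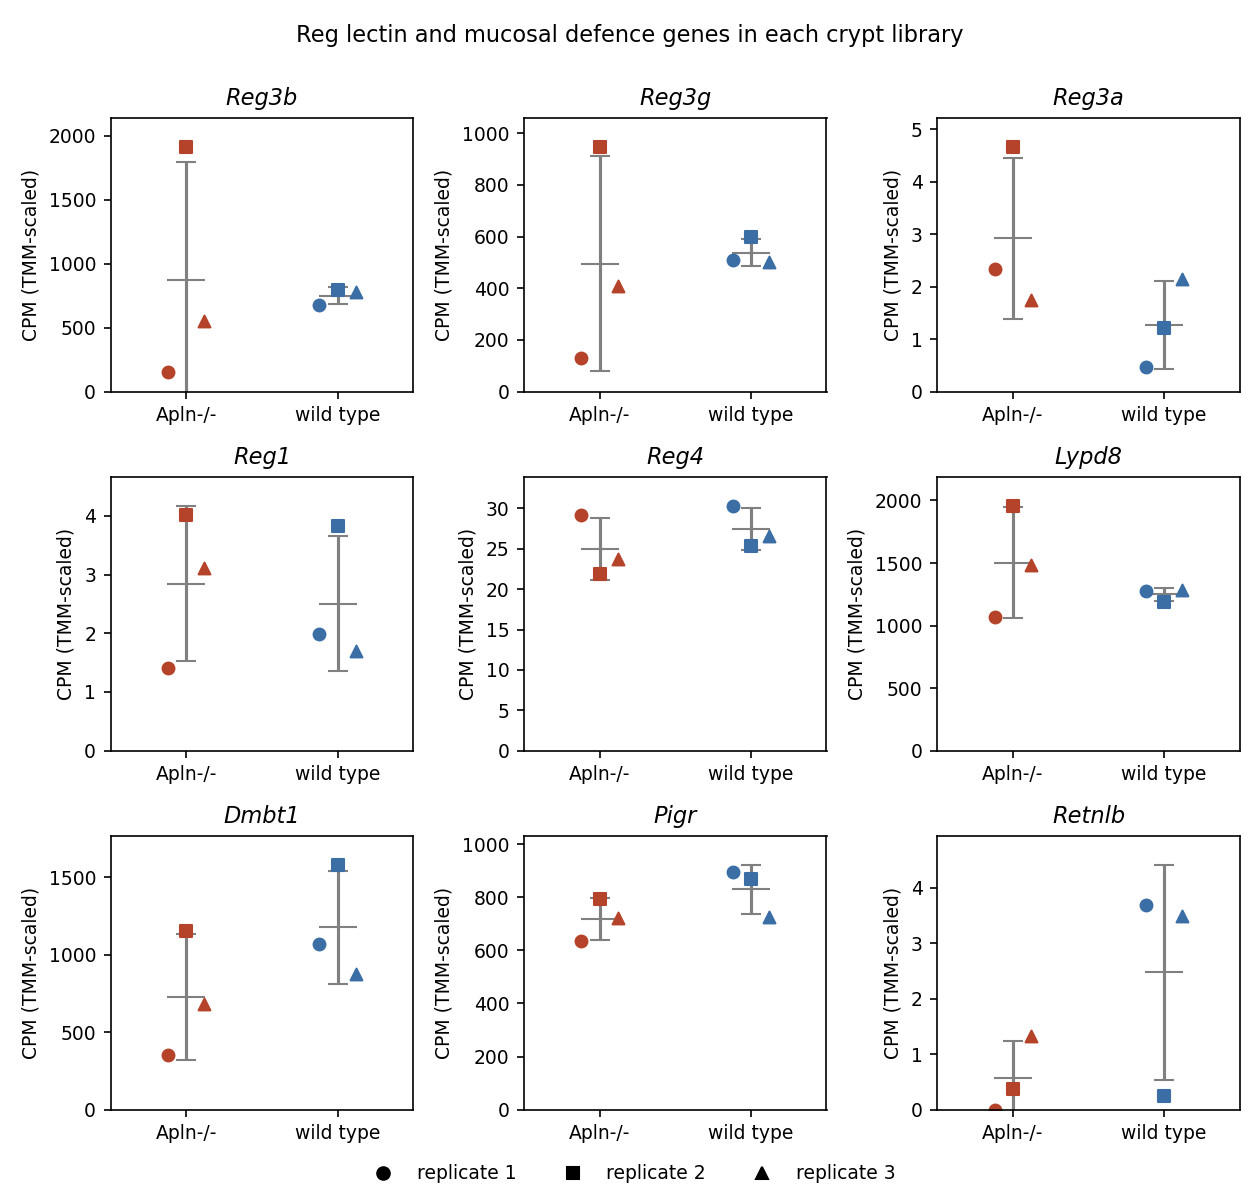
Level of each of the 9 genes in every library, in CPM (TMM-scaled; each panel has its own linear axis from 0). Apln-/- libraries are on the left and wild-type libraries on the right of each panel, the marker shape gives the replicate, and the grey lines are the mean and SD (n = 3; for Reg3b and Retnlb in Apln-/- the lower bar runs past 0). For Reg3b the Apln-/- libraries run between 155 and 1914 CPM, on both sides of the wild-type libraries at 677 to 798 CPM.

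Per length, Lypd8 and Reg3b were the most abundant of the group and Reg1, Reg3a and Retnlb the least. In TPM (transcript counts scaled for length and depth, by the longest annotated transcript) Lypd8 had 689, 1051 and 1440 as the lowest, median and highest of the 6 libraries. Reg3b had 155, 953 and 2193 TPM, and Lypd8 was above it in 4 of 6 libraries, so their order did not hold beyond the spread. Reg3g followed with 49.6, 248 and 407 TPM, below Reg3b in every library. Its level depends on the length used, because the longest annotated transcript of Reg3g (2089 nucleotides) retains an intron. By the protein-coding transcript of 771 nucleotides, Reg3g was at 561 ± 489 TPM in Apln-/- and 720 ± 97.0 TPM in wild type (SD, n = 3 each). Reg3b, with 783 nucleotides, was at 981 ± 1062 TPM in Apln-/- and 994 ± 142 TPM in wild type on that scale. In CPM its means were 875 in Apln-/- and 751 in wild type, so TPM did not compare the groups as CPM did. The 5 most abundant entries took 77.3% to 78.9% of counts in Apln-/- libraries and 70.7% to 75.3% in wild-type libraries. TPM therefore serves here for the order of genes within libraries. Next came Pigr at 129, 194 and 243 TPM and Dmbt1 at 43.7, 158 and 271 TPM, with Reg3g above Pigr and Pigr above Dmbt1 in 5 of 6 libraries each. Reg4 stood lower, at 19.2, 24.5 and 28.7 TPM, and was below Dmbt1 and above Reg1 in every library. Reg1 (1.22, 2.55 and 4.54 TPM), Reg3a (0.557, 2.03 and 5.07 TPM) and Retnlb (0, 1.06 and 5.42 TPM) did not differ from their neighbours beyond the spread, since Reg1 was above Reg3a in 3 and Reg3a above Retnlb in 4 of 6 libraries.

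Reg3b, which encodes a lectin that binds bacteria, had 155, 1914 and 556 CPM in Apln-/- replicates 1, 2 and 3, against 677, 798 and 779 CPM in wild-type replicates 1, 2 and 3. The wild-type libraries lay within 1.18-fold of one another, while Apln-/- replicate 2 was 12.3-fold above Apln-/- replicate 1. The groups overlapped, with means of 875 ± 922 CPM in Apln-/- and 751 ± 65.1 CPM in wild type (SD, n = 3 each). The log2 fold change was 0.22 ± 0.58 (SE), and it did not pass (edgeR adjusted p = 0.901). Its sign rested on single libraries: without Apln-/- replicate 2 it was -1.08 (edgeR adjusted p = 0.333), and without Apln-/- replicate 1 it was 0.72.

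Reg3g, the paralogue of Reg3b that acts on Gram-positive bacteria, went the same way. It had 132, 948 and 408 CPM in Apln-/- replicates 1, 2 and 3, against 511, 597 and 503 CPM in wild type. Apln-/- replicate 2 was the highest and Apln-/- replicates 1 and 3 the lowest of the 6 libraries, as for Reg3b. The range was 7.16-fold in Apln-/- and 1.19-fold in wild type, and the log2 fold change was -0.11 ± 0.46 (SE; edgeR adjusted p = 0.940). Without Apln-/- replicate 2 it was -0.99, and without Apln-/- replicate 1 it was 0.34.

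The share of both lectins taken by Reg3g was lowest in Apln-/- replicate 2. Of the counts of Reg3b and Reg3g together, 46.0% (Wilson 95% interval 44.8% to 47.3%) were Reg3g in Apln-/- replicate 1, 33.1% (32.7% to 33.5%) in replicate 2 and 42.4% (41.7% to 43.0%) in replicate 3. In wild-type replicates 1, 2 and 3 the share was 43.0% (42.5% to 43.6%), 42.8% (42.3% to 43.3%) and 39.2% (38.8% to 39.7%). Apln-/- replicate 1, with the fewest reads of both, had the highest share, and the other 4 libraries lay between without following the summed level. These intervals hold counting error alone: without molecular identifiers, 2 reads may stem from 1 molecule. The mean share was 40.5% ± 6.66 in Apln-/- and 41.7% ± 2.12 in wild type (SD, n = 3 each), a difference of -1.19 percentage points, and the exact permutation test (two-sided) gave p = 0.8, where 3 against 3 allows no p under 0.1. The longest run of bases that the transcripts of Reg3b and Reg3g share was 35, and the labels do not state how reads that match both were counted.

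Both lectins stood out for their spread among Apln-/- libraries. The SD of log2 CPM (prior count 2) of Reg3b was 1.81 over the Apln-/- libraries and 0.13 over the wild-type libraries, and that of Reg3g was 1.43 and 0.14. Among the 255 genes that averaged at least 100 CPM, Reg3b had the largest SD in Apln-/-, Reg3g ranked 2 and Dmbt1 ranked 3, while Lypd8 ranked 21 and Pigr 135. Of all genes tested, the SD in Apln-/- was smaller than that of Reg3b in 99.8% and smaller than that of Reg3g in 99.1%, whereas in wild type 10.9% and 12.2% had a smaller SD. The median gene went the other way, with an SD of 0.25 in Apln-/- and 0.37 in wild type, and 32.5% of genes had the larger SD in Apln-/-. In the group of 9 it was 7. This difference in spread was noticed in the data and was not tested.

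**Figure D2:**
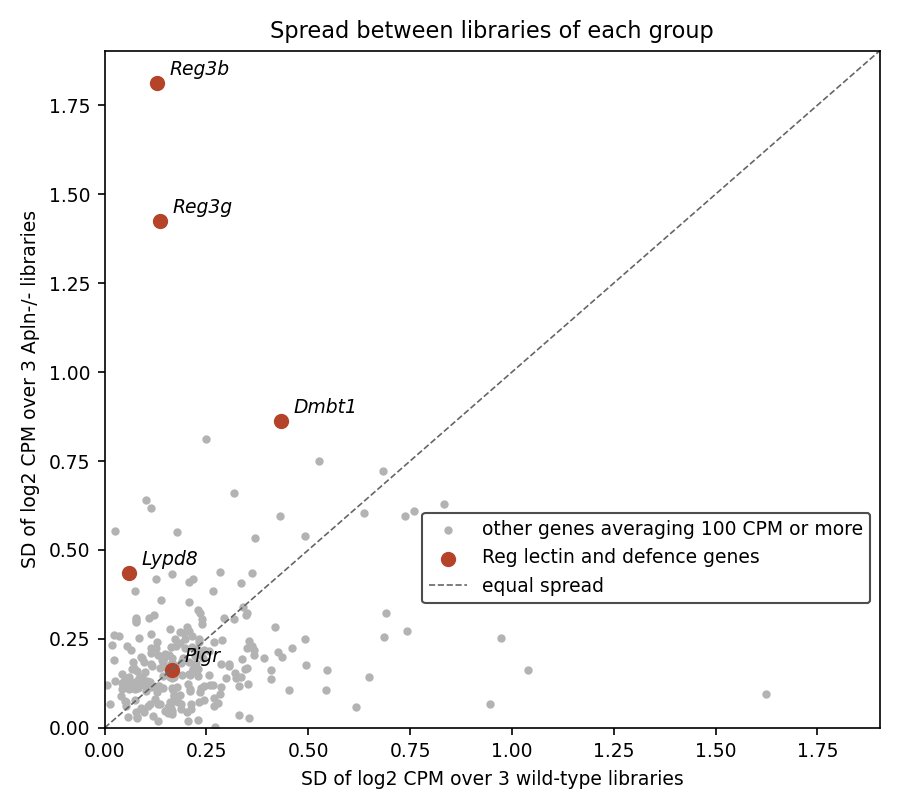
SD of log2 CPM over the 3 Apln-/- libraries (vertical) against that over the 3 wild-type libraries (horizontal) for the 255 genes averaging at least 100 CPM, 1 point per gene, with the 5 members of the group in red and a dashed line of equal spread. Reg3b (1.81 against 0.13) and Reg3g (1.43 against 0.14) lie above every other gene.

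The range hardly moved with the scaling: Apln-/- replicate 2 was above replicate 1 by 11.96-fold to 12.3-fold for Reg3b and by 6.94-fold to 7.16-fold for Reg3g under the 4 scalings tried. Apln-/- replicates 1, 2 and 3 had 5361786, 5623112 and 5144725 counts outside the 5 most abundant entries, and the part of depth in the spread was not tested.

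Reg3a encodes another lectin of the same cluster. It had 2.34, 4.66 and 1.75 CPM in Apln-/- replicates 1, 2 and 3 (50, 101 and 37 counts), against 0.476, 1.21 and 2.14 CPM in wild type (12, 35 and 68 counts). Apln-/- replicate 2 was again the highest library, but Apln-/- replicate 1 was not the lowest, and wild-type replicate 3 lay among the Apln-/- libraries. The log2 fold change was 1.18 ± 0.55 (SE; edgeR adjusted p = 0.333), and it ran between 0.68 and 1.78 when 1 library was left out.

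Reg1, which encodes a lectin best known from pancreas and regenerating gut, was at 1.41, 4.01 and 3.12 CPM in Apln-/- replicates 1, 2 and 3 and at 1.98, 3.82 and 1.70 CPM in wild type. The groups overlapped almost fully, and the log2 fold change of 0.19 ± 0.45 (SE; edgeR adjusted p = 0.890) turned to -0.14 without Apln-/- replicate 2. Acinar cells of the pancreas also make Reg1, and their marker Cpa1 had 1 count over the Apln-/- libraries and 2 over the wild-type libraries. The summed level of the 7 acinar markers in the table, most of it from Clps, was 8.95 to 16.4 CPM in Apln-/- and 6.71 to 12.6 CPM in wild type.

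Reg4, a lectin of enteroendocrine and other secretory cells, was the steadiest of the Reg genes in Apln-/-. It had 29.2, 21.8 and 23.7 CPM in Apln-/- replicates 1, 2 and 3, against 30.3, 25.3 and 26.5 CPM in wild type. Here Apln-/- replicate 1 was the highest of its group and replicate 2 the lowest, the reverse of Reg3b. The log2 fold change was -0.14 ± 0.16 (SE; edgeR adjusted p = 0.747). Beside it, the enteroendocrine marker Chga was at 41.6 ± 7.69 CPM in Apln-/- and 94.9 ± 30.4 CPM in wild type (SD, n = 3 each), with an adjusted p of 0.0532 in the edgeR test and 3.328e-05 in the DESeq2 Wald test. Over 14 alternatives the adjusted p of Chga was 4.232e-08 to 0.381, and 5 passed.

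The 2 remaining genes of the cluster were near the floor. Reg3d, a further Reg3 paralogue, had 1, 3 and 8 counts in Apln-/- replicates 1, 2 and 3 and 11, 47 and 8 in wild type, and lay under the count filter. Reg2 had 2 counts over the Apln-/- libraries and 0 over the wild-type libraries. With 0 counts a gene may still have had up to 3, which equals 0.138 to 0.142 CPM in an Apln-/- library and 0.0946 to 0.119 CPM in a wild-type library.

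Lypd8 encodes a protein that is shed from the epithelium and binds flagella. It had 1072, 1957 and 1482 CPM in Apln-/- replicates 1, 2 and 3, against 1274, 1192 and 1284 CPM in wild type. The Apln-/- libraries kept the order seen for Reg3b, and 2 of them were above all wild-type libraries and 1 below. The range was 1.83-fold in Apln-/- and 1.08-fold in wild type, and the log2 fold change was 0.27 ± 0.20 (SE; edgeR adjusted p = 0.576). It was 0.03 without Apln-/- replicate 2 and 0.04 once length and GC content of transcripts were corrected for.

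Dmbt1 encodes a large scavenger receptor protein of mucosal secretions that binds bacteria. It had 350, 1154 and 679 CPM in Apln-/- replicates 1, 2 and 3, against 1073, 1581 and 876 CPM in wild type. Apln-/- replicate 2 lay within the wild-type range, and Apln-/- replicates 1 and 3 lay below it. Means were 728 ± 404 CPM in Apln-/- and 1177 ± 364 CPM in wild type (SD, n = 3 each), and the log2 fold change was -0.69 ± 0.34 (SE; edgeR adjusted p = 0.367). The sign was negative under every alternative run, and the log2 fold change was -1.19 without Apln-/- replicate 2 and -0.36 without Apln-/- replicate 1. With no filter on low counts the same edgeR test gave an adjusted p of 0.00707, with an SE of 0.174 against 0.342 in the main fit. That adjusted p hardly reflects the spread of Dmbt1 between libraries. Over all alternatives the adjusted p ran up to 0.769.

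Pigr encodes the polymeric immunoglobulin receptor, which carries IgA across the epithelium. It was at 635, 794 and 723 CPM in Apln-/- replicates 1, 2 and 3 and at 894, 870 and 724 CPM in wild type. Of the Apln-/- libraries only replicate 2 lay within the wild-type range. Replicates 1 and 3 lay below it, replicate 3 (723 CPM) just under wild-type replicate 3 (724 CPM). The log2 fold change of Pigr was -0.21 ± 0.16 (SE; edgeR adjusted p = 0.578). Its range was 1.25-fold in Apln-/- and 1.24-fold in wild type, so Pigr did not share the wide spread of Reg3b. Plasma cells, which make its cargo, are no epithelial cells, yet the IgA heavy chain gene Igha had 82.4, 32.4 and 41.8 CPM in Apln-/- and 128, 164 and 9.78 CPM in wild type. The summed level of the 10 plasma cell markers was 131 to 266 CPM in Apln-/- and 72.3 to 363 CPM in wild type, and its part in the values of Pigr was not tested.

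Retnlb encodes a resistin-like protein that goblet cells secrete and that binds bacterial membranes. It had 0, 8 and 28 counts in Apln-/- replicates 1, 2 and 3 and 93, 7 and 111 counts in wild type, or 0, 0.369 and 1.32 CPM in Apln-/- and 3.69, 0.241 and 3.50 CPM in wild type. Wild-type replicate 2 lay among the Apln-/- libraries. The log2 fold change of -2.13 ± 1.02 (SE), which rests on few counts, had an edgeR adjusted p of 0.354. It was 0.0140 in the same test with no filter on low counts, where the SE was 0.568, and ran up to 0.692 over the other alternatives. Beside it, the goblet cell gene Muc2, which encodes the mucus-forming mucin, had 416, 540 and 581 CPM in Apln-/- and 714, 520 and 1899 CPM in wild type (edgeR adjusted p = 0.221, and 3.906e-06 to 0.604 over 14 alternatives, of which 1, with no filter, passed), with wild-type replicate 2 again the lowest of its group. The goblet cell markers were divided, with a positive log2 fold change in 6 of 15, such as Zg16 (0.44) and Tff3 (0.18), and a negative one in 9, and 0 passed in the edgeR or the DESeq2 test. The summed level of the 15 goblet cell markers was 2382 to 2628 CPM in Apln-/- and 1603 to 5209 CPM in wild type, and its part in the values of Retnlb was not tested.

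**Figure D3:**
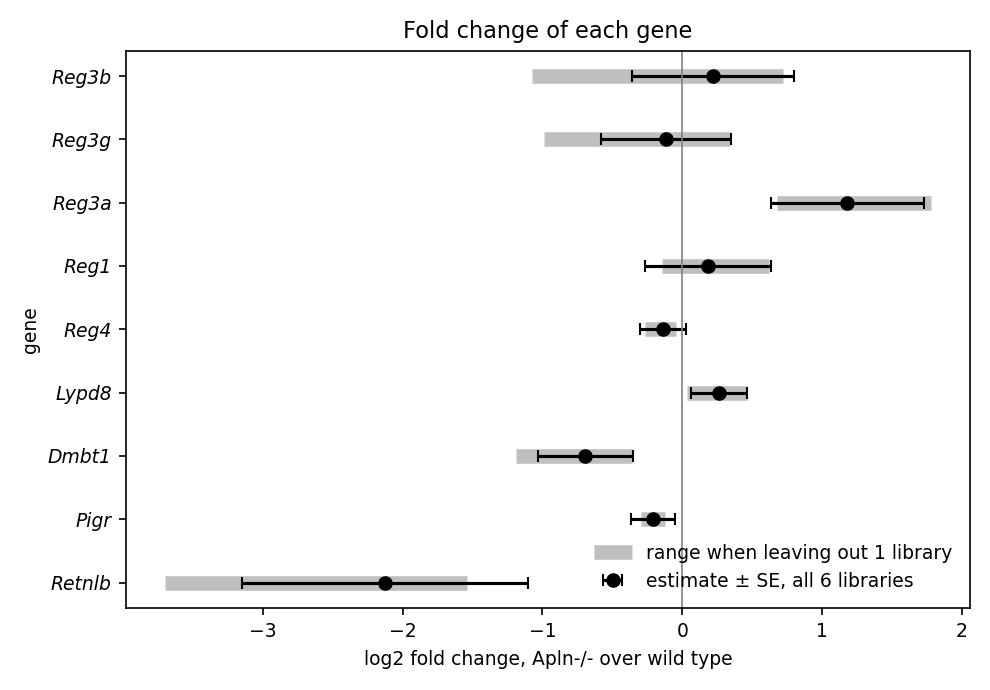
Log2 fold change of Apln-/- over wild type for each of the 9 genes (black points, with SE) and the range when each library in turn is left out (grey bars). The grey bars of Reg3b, Reg3g and Reg1 cross 0, and those of Dmbt1 (-1.19 to -0.36) and Retnlb stay below it.

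The Apln-/- libraries kept a common order over most of the group. In 6 of 9 genes, Reg1, Reg3b, Reg3g, Lypd8, Dmbt1 and Pigr, replicate 2 was highest, replicate 3 next and replicate 1 lowest, an order that 19.1% of all genes tested had. This order was noticed in the values of these same genes and was not tested. Reg3b and Reg3g were each the nearest gene to the other by the root mean square difference of centred log2 CPM over the 6 libraries (0.25), among 2433 and 3693 candidate genes. The next for Reg3b was Dnah17 (0.47), and for Reg3g Fam214b (0.33), both under 4 CPM in every library. Dmbt1 was nearest to Slc9a3 (0.16), which encodes a sodium and proton exchanger of the enterocyte brush border, followed by Fam228a (0.16) and Ubd (0.20). Slc9a3 had 1.69, 5.35 and 3.83 CPM in Apln-/- and 4.76, 9.23 and 3.88 CPM in wild type. Lypd8 was nearest to Serpinb1b (0.07), Glod5 (0.08) and Timm9 (0.09), and Pigr to Pon3 (0.02), Ap5m1 (0.04) and Pef1 (0.05). The nearest genes were Ddhd2, Brca2 and Ddx42 for Reg4 (each 0.06), Tmem88, Amd2 and Fgl2 for Reg1 (each 0.20) and Cenpw for Reg3a (0.18). For Retnlb no gene came within 0.95. Some of the named genes stood low in every library. Serpinb1b was at 0.328 to 0.692 CPM and Fam228a at 0.0938 to 0.689 CPM. Ubd was at 0.281 to 1.79 CPM and Amd2 at 0.375 to 0.923 CPM. These are likenesses over 6 points that share their libraries and scaling.

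**Figure D4:**
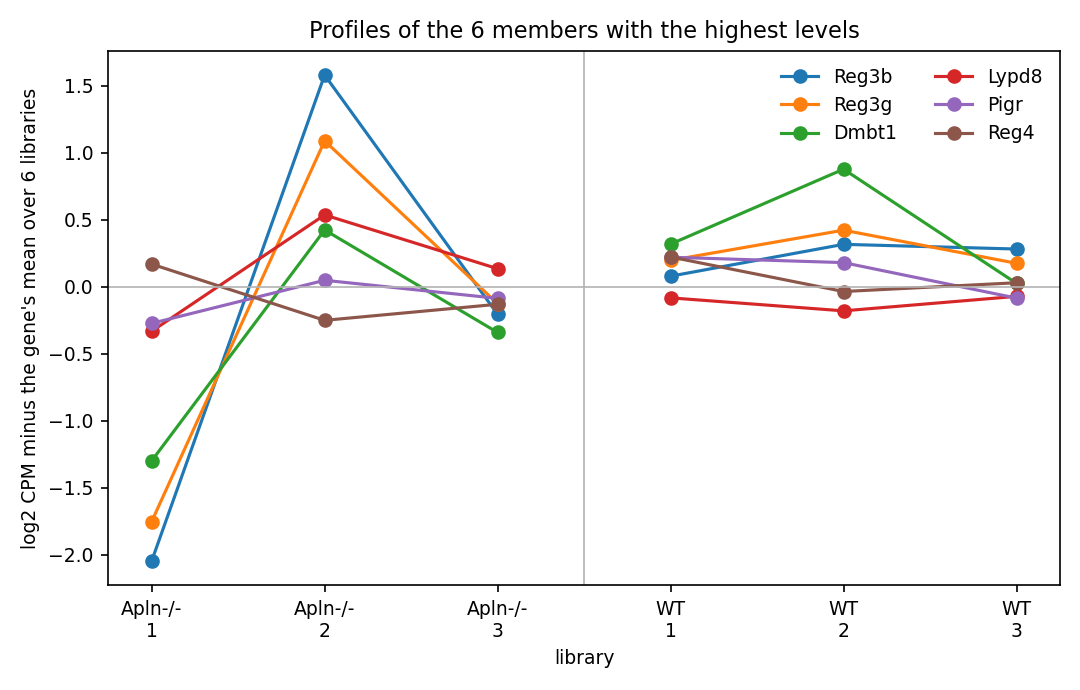
Log2 CPM (prior count 2) of the 6 most abundant genes of the group in each library, centred on the mean of each gene over the 6 libraries, with Apln-/- on the left and wild type on the right. Reg3b and Reg3g run together through the Apln-/- libraries, Dmbt1 and Lypd8 follow the same order with a smaller range, and Reg4 runs the other way.

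Genes of the IL-22 and Stat3 pathway, which drives Reg3 lectins in the gut, were read from a list of 24, of which 20 were tested. The edgeR test called 0 of them, and the median log2 fold change was -0.23, against -0.01 over all genes tested. At an unadjusted p under 0.05 there were 4 lower and 0 higher of the 20, against 15.2% of all genes in both directions together. The DESeq2 Wald test called 2 of the 17 with an adjusted p, Stat3 and Duox2, both lower in Apln-/-, against 5.73% of all genes. With no filter edgeR called 3 of 24, these and the receptor subunit gene Il6st, also lower, against 2.20% of all genes. Stat3 itself had 9.10, 19.5 and 14.0 CPM in Apln-/- replicates 1, 2 and 3 and 24.1, 39.5 and 21.9 CPM in wild type. The groups did not overlap for Stat3, and its log2 fold change was -1.01 ± 0.28 (SE; edgeR adjusted p = 0.129, DESeq2 adjusted p = 0.0107). Over 14 alternatives the adjusted p of Stat3 was 8.45e-05 to 0.503, and 3 passed. Duox2, the epithelial oxidase that releases hydrogen peroxide, had 31.8, 80.8 and 46.4 CPM in Apln-/- and 78.2, 102 and 87.1 CPM in wild type, in the order of Reg3b within Apln-/- (edgeR adjusted p = 0.219, DESeq2 adjusted p = 0.0476, and 0.00275 to 0.614 over 14 alternatives). Its maturation factor Duoxa2 had 7.97, 29.7 and 11.4 CPM in Apln-/- and 19.2, 25.0 and 15.7 CPM in wild type, also in that order. The receptor gene Il22ra1 was at 15.9 ± 3.06 CPM in Apln-/- and 19.5 ± 2.46 CPM in wild type (SD, n = 3 each). The order of the Apln-/- libraries seen for Reg3b was present in 7 of the 20 genes, against 19.1% of all genes tested.

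Sensors of microbes and the NF-kB pathway, a second route to Reg3 lectins, gave 0 calls among 23 tested genes in the edgeR test and 0 among the 20 with an adjusted p in the DESeq2 Wald test. In edgeR there were 3 lower and 0 higher of the 23 at an unadjusted p under 0.05, against 15.2% of all genes in both directions together. The median log2 fold change was -0.04. Myd88, the adaptor of Toll-like receptors, was at 3.23 ± 0.567 CPM in Apln-/- and 4.67 ± 1.56 CPM in wild type (SD, n = 3 each). Rela, which encodes an NF-kB subunit, had 5.02, 6.97 and 6.10 CPM in Apln-/- and 8.73, 10.8 and 7.98 CPM in wild type, with no overlap and an edgeR adjusted p of 0.240. The order of Reg3b within Apln-/- was present in 10 of the 23 genes, against 19.1% of all genes tested.

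Cell type markers also differed among the Apln-/- libraries. The summed level of 17 Paneth cell markers was 3142, 1368 and 2011 CPM in Apln-/- replicates 1, 2 and 3, the reverse order of Reg3b, and 1273, 834 and 1370 CPM in wild type. The Paneth cell gene Lyz1, which encodes lysozyme, was at 1068 ± 476 CPM in Apln-/- and 468 ± 107 CPM in wild type (SD, n = 3 each; edgeR adjusted p = 0.0925, and 2.34e-08 to 0.424 over 14 alternatives, of which 2 passed). Lyz1 alone gave 1577, 633 and 994 CPM of the sums in Apln-/- replicates 1, 2 and 3. The 12 stem cell markers summed to 1702, 896 and 1389 CPM in Apln-/-, again the reverse, and to 1275, 1270 and 860 CPM in wild type. Most of these sums came from Olfm4, which had 1161, 560 and 904 CPM in Apln-/-. The reverse order held for Lgr5, Olfm4, Ascl2, Smoc2, Axin2 and Slc12a2. It did not hold for Rnf43, Znrf3, Rgmb, Igfbp4, Tnfrsf19 and Cdca7. The 16 enterocyte markers summed to 1095, 1527 and 1059 CPM in Apln-/- and to 1119, 1302 and 1357 CPM in wild type. Of the enterocyte markers 8 of 16 had the order of Reg3b within Apln-/-, and of the enteroendocrine markers 7 of 15. That order was in 1 of 15 goblet, 0 of 17 Paneth, 0 of 12 stem and 0 of 11 tuft cell markers, against 19.1% of all genes tested. Sis, which encodes the brush border enzyme sucrase-isomaltase, had 91.3, 191 and 120 CPM in Apln-/- and 97.8, 94.7 and 173 CPM in wild type. Smooth muscle genes were highest in Apln-/- replicate 2 as well, where Reg3b and Reg3g were highest. Acta2, the smooth muscle actin gene, had 1.13, 6.78 and 1.37 CPM in Apln-/- replicates 1, 2 and 3 and 0.913, 0.241 and 0 CPM in wild type. Myh11, the smooth muscle myosin gene, had 0.938, 10.8 and 0.520 CPM in Apln-/- and 0.833, 0.551 and 0.505 CPM in wild type. The 13 endothelial and stromal markers summed to 12.3, 34.9 and 11.96 CPM in Apln-/- and 33.3, 21.4 and 2.27 CPM in wild type. The part of the mix of cells in the Reg3 values was not tested.

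Reg3 lectins are also known to differ along the small intestine, so genes of its distal and proximal segments were read from lists made after the values of the group had been seen. Fabp6, the ileal bile acid binding protein gene, had 40.1, 125 and 52.7 CPM in Apln-/- replicates 1, 2 and 3, in the order of Reg3b, and 17.7, 36.7 and 150 CPM in wild type. The bile acid transporter genes Slc10a2, Slc51a and Slc51b had the same order within Apln-/-. It was in 5 of 8 distal genes and 1 of 9 proximal genes, against 19.1% of all genes tested. Gata4, a transcription factor of the proximal intestine, had 9.52, 9.64 and 12.6 CPM in Apln-/- and 8.85, 26.8 and 5.90 CPM in wild type. The part of the segment sampled in the Reg3 values was not tested.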

How the data were processed

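RNA of sorted crypt epithelial cells was sequenced in 3 Apln-/- and 3 wild-type samples, grouped by their titles. The authors deposited 1 table of raw counts, not normalized, with a row per Ensembl gene and 6 columns, all matched to samples. The submitters' processing notes name STAR 2.6.1, HTSeq and mm10, and the annotation release and strand setting were not given in the sources used here. Per the labels' protocols, an Ovation Pico WTA kit amplified the RNA before library preparation. Amplification can widen the differences between libraries.

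Symbols, positions and lengths came from GENCODE M21 (GRCm38), which matched 28551 of 28564 identifiers. In edgeR 4.0.16 (R 4.3.3), filterByExpr (count minimum 10, total minimum 15) kept 15122 genes, libraries were scaled by TMM, and the quasi-likelihood test (glmQLFit, glmQLFTest) compared Apln-/- with wild type without covariate, with Benjamini-Hochberg adjustment over all genes and a threshold of 0.05. The fit was tested on simulated data, in which the variability of each gene was the same in both groups. Spread that differs between the groups, as for Reg3b, was not simulated. Log2 CPM used a prior count of 2. Exact permutation tests used SciPy 1.17.1, and alignments Biopython 1.88. Within each group, libraries differed by a chi-square of 7.60 to 54.8 per degree of freedom, and none was a copy of another.

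Members and lists were chosen with earlier results of these data known. Named were the members, other Reg genes, marker and pathway genes, up to 3 genes of lowest p per list, and up to 3 genes of most alike profile per member (with an SD of at least 50% of the member's). Duoxa2, Sis, Igha, Il6st, Zg16, Tff3 and the genes of intestinal segments were named after their values were seen. Alternatives were other scalings, DESeq2 1.42.0, other filters, a length and GC correction (mgcv), a replicate block, other gene lengths and leaving out each library.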

Additional observations from a re-analysis of the deposited data

How the results depend on the processing

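The count of genes past the threshold depended on the setting, and that of the 9 Reg and defence genes hardly did. Against 26 genes of all tested (17 higher, 9 lower), edgeR called 1 with DESeq2 size factors, 1 with upper-quartile scaling, 1 after the length and GC correction, 1 when the 5 most abundant entries were dropped, 117 with a filter of 1 CPM in 3 libraries and 629 with no filter, and the DESeq2 Wald test called 581. Leaving out 1 library gave 0 to 358 calls, with 358 without wild-type replicate 3, 1 without Apln-/- replicate 2 and 0 without any of the others. Of the 9 genes, 2 passed with no filter (Dmbt1 and Retnlb) and 0 under every other alternative. In the fit with no filter the SEs of Reg3b, Dmbt1 and Lyz1 were 0.173, 0.174 and 0.175, against 0.578, 0.342 and 0.280 in the main fit. Its calls among abundant genes therefore hardly rest on the spread of each gene. The lowest adjusted p of Chga, Lyz1, Stat3, Duox2 and Muc2 also came from that fit. Of 126 fold changes of the 9 genes under alternatives, 8 had the other sign. Beyond those that left out a library, these were Reg1 (-0.14) and Reg3b (-0.074) after the length and GC correction and Reg3b (-0.45) with the replicate block. Over the fits that left out a library, the log2 fold change ran between -0.14 and 0.62 for Reg1, between -1.08 and 0.72 for Reg3b and between -0.99 and 0.34 for Reg3g. The causes were not tested. The replicate block called 173 of all genes and 0 of the 9. Correlations over genes were also taken after the mean of its group was subtracted from each log2 CPM. These correlations of deviations were 0.04, 0.06 and 0.01 between same-numbered libraries of Apln-/- and wild type. Between Apln-/- and wild-type libraries of different numbers they were -0.05 to 0.02. The replicate numbers are those of the titles. The count columns of Apln-/- replicates 1, 2 and 3 are named KO1, KO3 and KO4, and those of wild type WT1, WT2 and WT3. Whether the numbers pair the samples is not stated in the labels and cannot be decided from these values. The difference in the share of Reg3g was -3.96 to 2.503 percentage points when 1 library was left out. By the union of exons Reg3b was at 705 TPM in wild type, and by the protein-coding transcript Reg3g was at 561 TPM in Apln-/- and 720 TPM in wild type. Depth limits Reg2, Reg3d and Retnlb, where counts were few.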
